A study of Mus musculus with 18 samples.

Results

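The interferon response and class I genes described here are 41 mouse genes of the interferon pathway, chosen by name: 4 receptor chains, 6 transcription factors, 18 RNA sensors and antiviral effectors, 3 genes of the ISG15 system, 5 interferon-inducible GTPases and 5 genes of class I antigen presentation. Each gene was taken from probe sets annotated with its symbol alone, and from the brightest of these where a gene had several. In this way 40 of the 41 were measured, among 12393 genes on the array. Isg15, a ubiquitin-like modifier, was represented only by 1 probe set shared with another gene and was not analysed.

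The values are log2 expression in whole testis of hypogonadal (hpg) male mice, 10 weeks old, a strain that lacks gonadotrophin-releasing hormone and therefore has very little follicle-stimulating hormone (FSH) or luteinising hormone of its own. Treated mice were given 8 IU of recombinant FSH subcutaneously in 0.2 ml of phosphate-buffered saline at 12 h intervals for 12 h (4 mice), 24 h (3 mice) or 72 h (4 mice), and testes were taken 1 h after the last dose. The 7 controls were hpg males of the same age that received no injection, so an effect of injection and one of FSH cannot be told apart. Each mouse gave 1 array, and all groups share the hpg genotype.

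The 18 arrays fall into 2 sets that were not described in the labels. Spike-in and ribosomal probe sets separate them without overlap: the Dap spike-in read 8.00 to 8.92 on the 12 arrays of 12 h, 72 h and controls 4 to 7, and 2.74 to 3.30 on the 6 arrays of 24 h and controls 1 to 3, where 18S ribosomal RNA read 9.07 to 11.7 against 3.35 to 3.70. Every time was therefore compared with the controls of its own set, and a gene was called when its limma adjusted p was below 0.05 over all 22626 probe sets tested. The comparisons at 12 h and 72 h share controls 4 to 7. The tissue label was checked against cell markers. Clu, a secreted protein of Sertoli cells, had group means of 13.9 to 14.6, and Dazl, a germ cell RNA-binding protein, 10.7 to 11.1. In whole tissue, fewer cells of a type and less RNA per cell cannot be told apart.

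Interferons are cytokines that put cells in an antiviral state. Type I interferons bind the receptor chains Ifnar1 and Ifnar2, whose kinases are Jak1 and Tyk2, and Stat2 and Irf9 then act at interferon-stimulated response elements in DNA. Interferon gamma binds Ifngr1 and Ifngr2 and raises the GTPases that attack vacuoles of microbes and the class I genes that display peptides to T cells. In the testis, an organ of immune privilege, macrophages and the Leydig and Sertoli cells can make antiviral proteins when stimulated.

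Promoter windows of 300 bases, 250 before to 50 after the start of transcription, were available for 35 of the 41 genes (RefSeq, build GRCm38.p6). The core of the interferon-stimulated response element, GAAA and GAAA with 2 bases between them, on either strand, was present in a window of 16 of these 35 genes (45.7%), against 3.99% of all 27025 genes with a window. The gamma-activated site, TTCNNNGAA, a form that is its own reverse complement, was present in 13 (37.1%), against 9.55% of all genes. Both motifs were present in 4 genes and neither in 10, among them Ifitm1, Oasl2, Irf9 and Stat3. Matches of the motifs may overlap each other, and these are matches of letters in a window, which do not show binding. The windows of 4 genes that were lower at some time and hold overlapping or repeated response element cores, and of Irf8, which holds 2 gamma-activated sites, are printed with the matched letters in capitals. Ifit3 lies at chr19:34583279-34583578 on the plus strand, Irgm1 at chr11:48871371-48871670 on the minus strand, Gbp3 at chr3:142559794-142560093 on the plus strand, Bst2 at chr8:71537423-71537722 on the minus strand and Irf8 at chr8:120736108-120736407 on the plus strand. Gbp3 and Irf8 each have 2 windows, of which 1 is shown.
Ifit3: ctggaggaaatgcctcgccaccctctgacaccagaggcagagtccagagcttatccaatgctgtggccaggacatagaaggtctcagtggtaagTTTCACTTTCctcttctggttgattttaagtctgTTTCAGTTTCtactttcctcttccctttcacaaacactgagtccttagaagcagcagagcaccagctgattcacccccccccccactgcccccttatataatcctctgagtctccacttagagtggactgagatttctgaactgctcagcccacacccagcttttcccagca
Irgm1: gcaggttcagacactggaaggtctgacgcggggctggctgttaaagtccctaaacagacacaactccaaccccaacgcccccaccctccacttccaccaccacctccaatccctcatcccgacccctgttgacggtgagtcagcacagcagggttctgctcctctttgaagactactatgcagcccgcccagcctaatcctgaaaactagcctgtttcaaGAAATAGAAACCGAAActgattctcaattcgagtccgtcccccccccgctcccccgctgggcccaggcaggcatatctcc
Gbp3: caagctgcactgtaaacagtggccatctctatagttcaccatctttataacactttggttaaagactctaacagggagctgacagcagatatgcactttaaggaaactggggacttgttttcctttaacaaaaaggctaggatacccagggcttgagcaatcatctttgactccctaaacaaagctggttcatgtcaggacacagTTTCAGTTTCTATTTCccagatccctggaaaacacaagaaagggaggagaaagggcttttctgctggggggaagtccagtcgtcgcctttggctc
Bst2: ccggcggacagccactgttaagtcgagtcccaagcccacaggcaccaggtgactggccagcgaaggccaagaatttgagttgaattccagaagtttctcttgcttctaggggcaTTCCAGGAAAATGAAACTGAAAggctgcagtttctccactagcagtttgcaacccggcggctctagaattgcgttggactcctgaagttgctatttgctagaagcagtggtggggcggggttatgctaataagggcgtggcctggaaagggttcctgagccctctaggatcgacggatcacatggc
Irf8: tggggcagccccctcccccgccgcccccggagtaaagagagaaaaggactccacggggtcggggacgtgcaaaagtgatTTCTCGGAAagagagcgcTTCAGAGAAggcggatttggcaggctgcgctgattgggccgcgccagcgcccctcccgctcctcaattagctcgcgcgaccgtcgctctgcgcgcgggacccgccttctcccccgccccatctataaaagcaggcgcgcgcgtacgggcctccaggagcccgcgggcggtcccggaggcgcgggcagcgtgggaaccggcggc
Counted from the start site, with -1 the base before it, the cores of Ifit3 lie at -156 to -147 and at -122 to -113, both as the reverse complement. Those of Irgm1 overlap, at -30 to -21 and -24 to -15, as do those of Gbp3, at -45 to -36 and -39 to -30. Bst2 has overlapping cores at -130 to -121 and -124 to -115 and a gamma-activated site at -136 to -128, which overlaps the first of them. The sites of Irf8 lie at -171 to -163 and at -153 to -145.

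Of the 40 genes measured, 12 were at the floor of the array, taken as a mean of at most 4 on the log2 scale, in each of the 5 groups: Irf7, Adar, Oas2, Ifit1, Ifit2, Mx1, Mx2, Rsad2, Isg20, Trim30a, Tap1 and Tap2. Their group means were all at most 3.93, and spike-in probe sets on arrays that lacked the spike read 2.74 to 3.30. These include the antiviral genes best known as markers of a strong interferon response, such as Mx1 and Rsad2, and for them only a bound on the transcript was obtained. Of all probe sets, 42.3% were at the floor in the same sense. The other 28 genes were above the floor in at least 1 group, and B2m, the light chain of class I molecules, read between 10.0 and 11.6 on every array.

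With each time fitted against the controls of its own set, 0 of the 40 genes were called higher by limma at any time, and 11 fell at 1 time or more. At 12 h 2 of 40 fell, Ifit3 and Gbp3, which is 5.0%, against 5.35% of all probe sets called (3.2% higher and 2.16% lower). At 24 h 5 fell, Ifnar1, Irf8, Ifitm1, Gbp3 and Iigp1, which is 12.5%, against 13.4% of all probe sets (6.1% higher and 7.26% lower). At 72 h 7 fell, Irf1, Oasl2, Ifit3, Bst2, Ifitm1, Gbp2 and Irgm1, which is 17.5%, against 6.13% of all probe sets (3.63% higher and 2.5% lower). The share called was thus close to that of the whole array at 12 h and 24 h and above it at 72 h. The genes were chosen with earlier results of these data known, and the effect of that choice on these shares was not tested. At an unadjusted p below 0.05, 1, 3 and 1 genes were higher at 12, 24 and 72 h, and 10, 7 and 15 were lower. Over all 22626 probe sets, 1797, 4124 and 1950 were higher and 1716, 2960 and 1788 lower in the same sense. The counts of the 40 include genes at the floor, such as Irf7, Ifit1 and Trim30a, lower at 12 h. Other settings called Stat3, Eif2ak2 and Mx1 higher, all at 24 h and Stat3 also at 12 h. Stat3 was called higher at 12 h with arrays centred on their median, with bright probe sets alone and with the mean of a gene's probe sets. At 24 h it was called higher with that mean, with all 7 controls and no term for the array set, with the set as a random block and without control 2. Eif2ak2 was called higher at 24 h with all 7 controls, with the random block and with bright probe sets alone, and Mx1, at the floor, with all 7 controls, with replicate numbers as a block in the second set and without 24 h mouse 1.

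Among the 28 genes above the floor, the median change was -0.16 at 12 h, -0.30 at 24 h and -0.36 at 72 h, against -0.03, -0.05 and -0.01 for all probe sets above the floor. The change was below 0 for 18, 22 and 25 of the 28, which is 64.3%, 78.6% and 89.3%, against 54.1%, 55.2% and 51.7% of all such probe sets. The untreated controls of both sets also differed: controls 1 to 3 minus controls 4 to 7 gave a median of -0.35 over the 28, with 20 below 0 (71.4%), against -0.08 and 58.7% for all such probe sets. At 72 h every treated mouse was below every control for 11 of the 40 genes and above for 1, where 5.64% and 6.91% of all probe sets separated in these directions. The 11 include Tap2, a gene at the floor. At 12 h 3 were wholly below and 1 wholly above (4.83% and 5.71%), and at 24 h 6 and 6 (11.2% and 25.8%), of which Stat3, Eif2ak2 and 4 genes at the floor were the ones above.

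**Figure D1:**
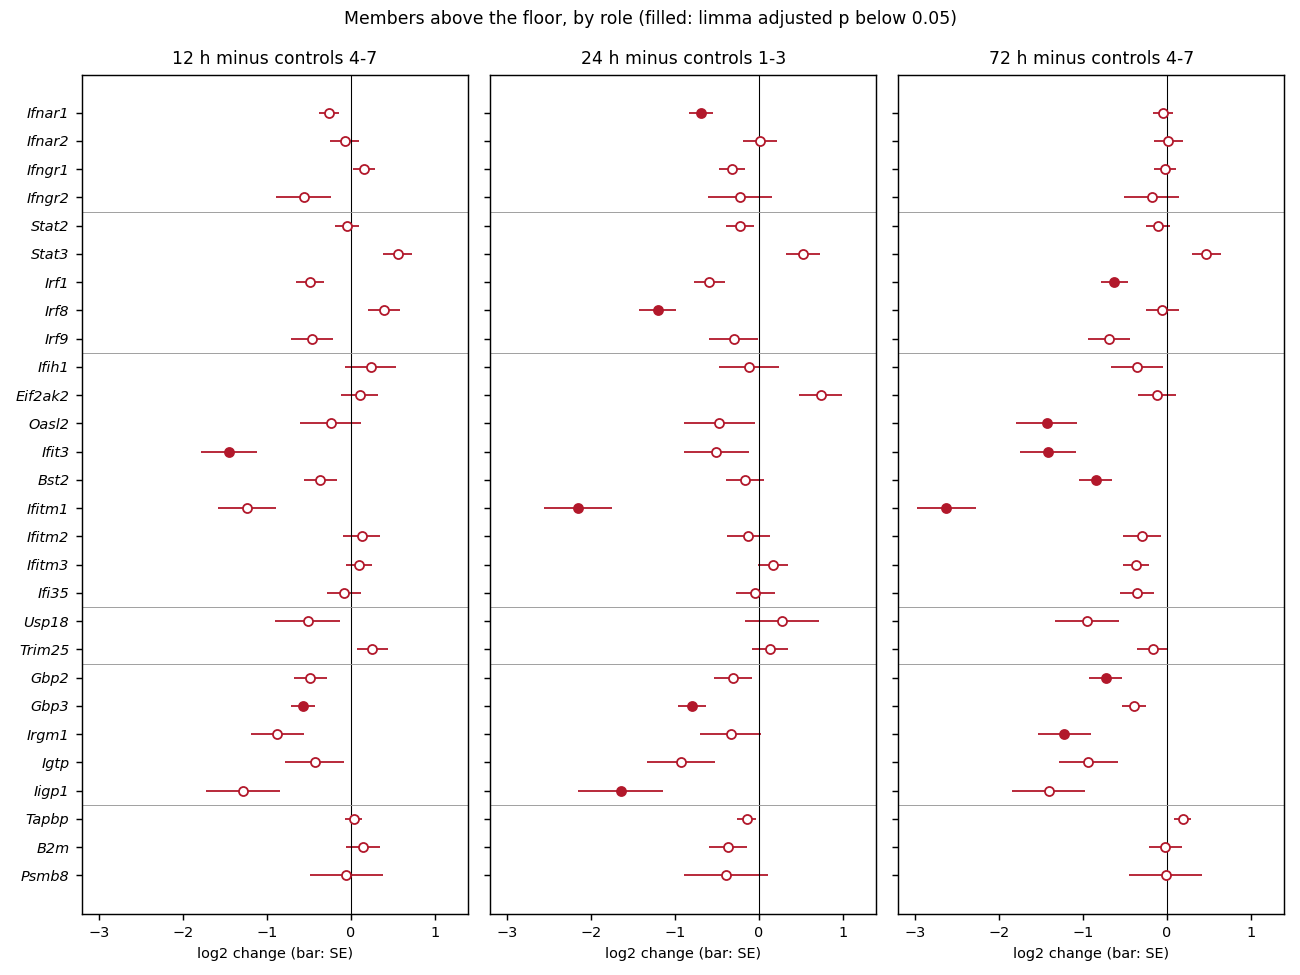
Log2 change against the controls of the same array set for the 28 genes above the floor, in role order with grey lines between roles, at 12, 24 and 72 h. Points are limma estimates, bars 1 SE, and filled points have an adjusted p below 0.05. Filled points number 2, 5 and 7 and all lie left of 0, with Ifitm1 farthest left at 24 h and 72 h.

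The counts rested on few mice. At 72 h 1 gene, Ifitm1, was called without 72 h mouse 4 or without control 7, 2 without 72 h mouse 3, and 3 without 72 h mouse 2 or without control 6. At 12 h the count was 0 without 12 h mouse 2 or 4 or control 6 or 7, 1 without 12 h mouse 1, and 4 without control 5. Of these 4, Irf7 and Ifit1 were at the floor. At 24 h it stayed between 4 and 7 when any mouse was left out, but only Irf8 was called when the 6 arrays of that set were fitted alone. With replicate numbers as a block in that set, 7 were called at 24 h, namely Irf1 and Mx1 besides the 5, with Mx1 higher and at the floor. Deviations of same-numbered mice from their group means correlated there at 0.15 to 0.45.

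Of the 4 receptor chains 1, Ifnar1, fell, at 24 h, where 7.26% of all probe sets were called lower. Ifnar1, which starts the type I response, read 7.07, 7.05 and 7.06 in controls 1 to 3 and 6.68, 6.18 and 6.26 in the 3 mice at 24 h. All 3 treated mice were below all 3 controls, which lay within a very narrow range. Ifnar1 fell 1.61-fold at 24 h (-0.69 ± 0.14, log2 change ± SE, n = 3 against 3, limma adjusted p = 0.00551), and kept the call when any mouse was left out. It was not called in the 6 arrays alone (limma adjusted p = 0.096). In the other set it read 7.13, 7.16, 6.77 and 7.02 in controls 4 to 7, 6.52, 6.68, 7.00 and 6.84 at 12 h and 7.14, 7.02, 6.84 and 6.88 at 72 h. Those groups overlapped, with changes of -0.26 ± 0.12 (n = 4 against 4, limma adjusted p = 0.329) and -0.05 ± 0.12 (limma adjusted p = 0.934).

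Ifngr1, the ligand-binding chain for interferon gamma, read 6.87, 7.09, 6.92 and 6.78 in controls 4 to 7, 6.94, 7.29, 6.98 and 7.08 at 12 h and 6.70, 6.87, 6.89 and 7.11 at 72 h. In the second set it read 7.25, 6.88 and 6.75 in controls and 6.38, 6.94 and 6.59 at 24 h. The groups overlapped at every time, with changes of 0.16 ± 0.13, -0.32 ± 0.15 and -0.02 ± 0.13 at 12, 24 and 72 h (limma adjusted p = 0.752, 0.17 and 0.958). Ifnar2 and Ifngr2, the partner chains, changed by between -0.56 and 0.02 with no call, and the lowest of these values, that of Ifngr2 at 12 h, rested on 12 h mouse 1, which read 5.14 against 6.86 to 7.01 in the other mice of its group.

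Of the 6 transcription factors, Irf8 fell at 24 h and Irf1 at 72 h, where 7.26% and 2.5% of all probe sets were called lower. Irf8, a factor of macrophage and dendritic cell development, read 5.14, 5.28 and 4.80 in controls 1 to 3 and 3.84, 3.95 and 3.81 at 24 h. All treated mice lay at the floor and below all controls, so that the fall may be understated. Irf8 fell 2.31-fold at 24 h (-1.21 ± 0.22, n = 3 against 3, limma adjusted p = 0.00278) and was called in all 16 other settings tried, among them the 6 arrays alone. In the other set it read 5.48, 5.91, 5.38 and 5.03 in controls 4 to 7, 5.67, 5.38, 6.03 and 6.32 at 12 h and 5.39, 5.46, 5.37 and 5.37 at 72 h. These groups overlapped, with changes of 0.40 ± 0.19 (limma adjusted p = 0.349) and -0.05 ± 0.19 (limma adjusted p = 0.944).

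The 24 h change of Irf8 differed from its 12 h change, each against its own controls, by -1.60 ± 0.29 (limma adjusted p = 0.0211). It was the 1 gene of 40 called in this difference, against 0.875% of all probe sets (0.314% higher and 0.561% lower). The call was lost without control 1 or control 2 (limma adjusted p = 0.0513 and 0.052). A second, dimmer probe set of Irf8 was at the floor throughout and gave -0.11 at 24 h.

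Irf1, an early interferon gamma target that activates class I and GTPase genes, read 7.24, 7.54, 7.33 and 7.73 in controls 4 to 7 and 7.06, 6.84, 6.80 and 6.64 at 72 h. The groups did not overlap. Irf1 fell 1.54-fold at 72 h (-0.63 ± 0.16, n = 4 against 4, limma adjusted p = 0.0345), a call lost without 72 h mouse 2, 3 or 4 or without control 5 or 7 (limma adjusted p = 0.0783 to 0.108). At 12 h it read 6.53, 7.06, 7.15 and 7.16, also below all 4 controls, with a change of -0.49 ± 0.16 (limma adjusted p = 0.116). In the second set it read 7.76, 7.62 and 7.58 in controls and 7.14, 7.36 and 6.69 at 24 h, again without overlap (-0.59 ± 0.19, limma adjusted p = 0.0535). Among these 3 comparisons, values of Irf1 in treated mice were below those of every control, and 1 comparison passed the test.

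Stat3, which carries signals of interleukin-6 type cytokines, was the only gene of the 28 with all treated mice above all controls of their set at each time. It read 7.26, 7.36, 7.07 and 7.35 in controls 4 to 7, 7.53, 7.52, 8.36 and 7.88 at 12 h and 7.75, 7.68, 7.66 and 7.82 at 72 h. Readings in the second set were 8.14, 8.59 and 7.85 in controls and 8.65, 8.75 and 8.75 at 24 h. The changes of 0.56 ± 0.17, 0.53 ± 0.20 and 0.47 ± 0.17 did not pass the test (limma adjusted p = 0.0802, 0.0904 and 0.145 at 12, 24 and 72 h), though at 12 h they did with arrays centred (0.63, limma adjusted p = 0.0463), with bright probe sets alone (limma adjusted p = 0.0488) and with the mean of its probe sets (0.40, limma adjusted p = 0.0207), and other settings gave limma adjusted p of up to 0.817. A second probe set of Stat3, also above the floor at a mean of 7.75, was called higher at 12 h (0.65, limma adjusted p = 0.017) and 24 h (0.59, limma adjusted p = 0.034) and gave 0.44 at 72 h (limma adjusted p = 0.102).

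At Stat3 the untreated controls differed too: controls 1 to 3 read 0.93 ± 0.19 above controls 4 to 7 (limma adjusted p = 0.00715), while the second probe set gave -0.35 (limma adjusted p = 0.168). Bst2 (-0.73) and Ifi35 (-0.77) were lower in controls 1 to 3 (limma adjusted p = 0.0459 and 0.043). These are 3 of the 40 genes, against 9.31% of all probe sets (4.64% higher and 4.68% lower).

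Stat2, a transcription factor of type I signalling, lay near the floor, at 3.73, 3.67, 4.24 and 3.81 in controls 4 to 7, 3.75, 3.78, 3.88 and 3.86 at 12 h and 4.09, 3.39, 3.75 and 3.79 at 72 h. It read 4.48, 4.33 and 4.13 in controls 1 to 3 and 3.94, 4.15 and 4.18 at 24 h. All groups overlapped and no change passed the test (limma adjusted p = 1.0, 0.361 and 0.897 at 12, 24 and 72 h). Irf9, which acts with Stat2, had changes of -0.46, -0.30 and -0.69 (limma adjusted p = 0.448, 0.5 and 0.15), and every mouse at 72 h was below every control.

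**Figure D2:**
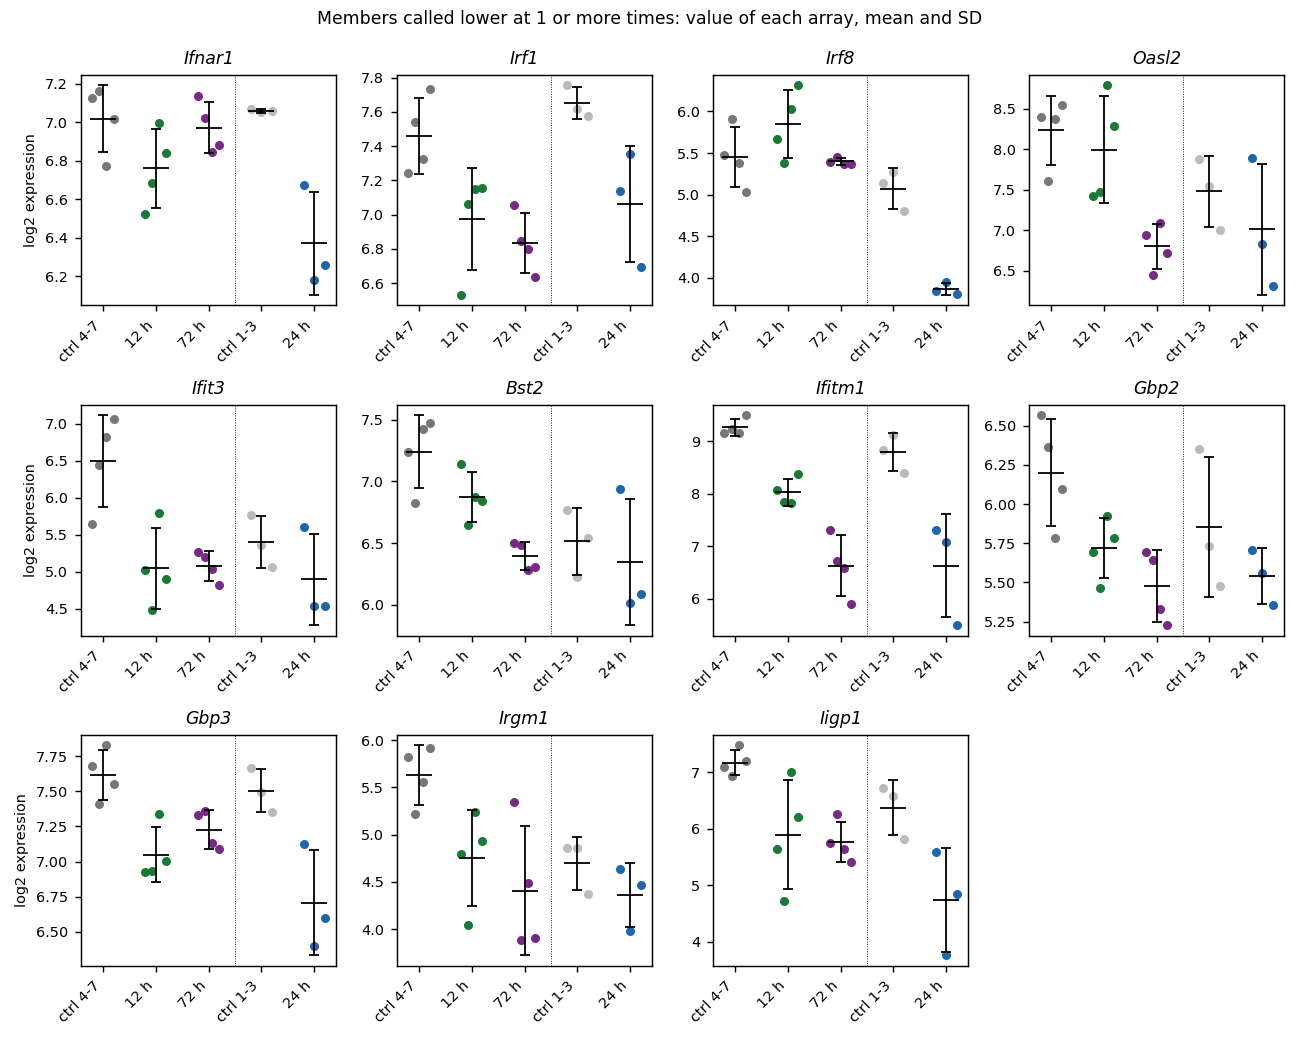
Log2 expression of each array for the 11 genes called lower at 1 time or more, with the mean and SD of each group as bars. The dotted line separates the arrays of controls 4 to 7, 12 h and 72 h from those of controls 1 to 3 and 24 h. Ifitm1 lies between 9.15 and 9.49 in controls 4 to 7 and between 5.91 and 7.32 at 72 h, and Irf8 between 3.81 and 3.95 at 24 h.

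Of the antiviral effectors, Ifitm1 had the largest fall of the group. Ifitm1 is a membrane protein that hinders the entry of viruses and is also known from early germ cells. It read 9.15, 9.24, 9.15 and 9.49 in controls 4 to 7, 8.07, 7.84, 7.83 and 8.37 at 12 h, and 7.32, 6.71, 6.59 and 5.91 at 72 h. All mice at 72 h were below all mice at 12 h, and these below all controls. Ifitm1 fell 6.18-fold at 72 h (-2.63 ± 0.35, n = 4 against 4, limma adjusted p = 0.00036), and its change of -1.23 ± 0.35 at 12 h just missed the threshold (limma adjusted p = 0.0564). In the second set it read 8.83, 9.12 and 8.40 in controls and 7.31, 7.09 and 5.50 at 24 h, again without overlap, and fell 4.44-fold (-2.15 ± 0.40, n = 3 against 3, limma adjusted p = 0.00326). Both calls were kept when any mouse was left out, although the call at 24 h was lost in the 6 arrays alone (limma adjusted p = 0.139).

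Its relatives Ifitm2 and Ifitm3, which block entry from endosomes, were not called at any time. Ifitm2 had group means between 8.75 and 9.54 and changes between -0.30 and 0.13, and Ifitm3 group means between 9.55 and 10.0 and changes between -0.36 and 0.17, and the smallest limma adjusted p was 0.242, for Ifitm3 at 72 h.

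Ifit3, of the antiviral Ifit complex, was the gene with the largest fall at 12 h. It read 5.65, 6.44, 6.82 and 7.07 in controls 4 to 7, 5.02, 4.48, 5.79 and 4.90 at 12 h, and 5.26, 5.20, 5.04 and 4.82 at 72 h. At 12 h 1 treated mouse, mouse 3, overlapped the lowest control, and at 72 h there was no overlap. Ifit3 fell 2.72-fold at 12 h (-1.45 ± 0.33, n = 4 against 4, limma adjusted p = 0.0193) and 2.67-fold at 72 h (-1.42 ± 0.33, limma adjusted p = 0.02). The call at 12 h was lost without 12 h mouse 2 or 4 or control 6 or 7 (limma adjusted p = 0.0574 to 0.0672), and that at 72 h without 72 h mouse 3 or 4 or control 6 or 7 (limma adjusted p = 0.0523 to 0.0664). In the second set Ifit3 read 5.77, 5.36 and 5.07 in controls and 5.61, 4.54 and 4.54 at 24 h, which overlap (-0.50 ± 0.39, limma adjusted p = 0.381). Mice carry a near-identical copy of Ifit3, and which copy the probes read was not tested.

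Oasl2, of the oligoadenylate synthetase family that senses viral RNA, read 8.40, 7.61, 8.38 and 8.55 in controls 4 to 7, 7.42, 7.47, 8.79 and 8.29 at 12 h, and 6.95, 6.45, 7.09 and 6.71 at 72 h. Mice at 72 h were below all controls and all mice at 12 h, which overlapped the controls. Oasl2 fell 2.70-fold at 72 h (-1.43 ± 0.37, n = 4 against 4, limma adjusted p = 0.0308), a call lost without 72 h mouse 1, 2 or 4 or control 4, 6 or 7 (limma adjusted p = 0.0553 to 0.0942). At 12 h the change was -0.24 ± 0.37 (limma adjusted p = 1.0). At 24 h it read 7.90, 6.83 and 6.31 against 7.88, 7.55 and 7.01 in its controls (-0.47 ± 0.42, limma adjusted p = 0.46).

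Bst2, or tetherin, which holds budding virus at the cell surface, read 7.24, 6.82, 7.43 and 7.47 in controls 4 to 7, 7.14, 6.65, 6.87 and 6.84 at 12 h, and 6.50, 6.48, 6.29 and 6.31 at 72 h. Mice at 72 h again lay below all others of the set. Bst2 fell 1.80-fold at 72 h (-0.84 ± 0.20, n = 4 against 4, limma adjusted p = 0.0184), a call lost without 72 h mouse 3 or 4 or control 6 or 7 (limma adjusted p = 0.0511 to 0.0599). The changes at 12 h and 24 h were -0.36 ± 0.20 and -0.17 ± 0.23 (limma adjusted p = 0.434 and 0.637), with 6.94, 6.02 and 6.09 at 24 h against 6.77, 6.23 and 6.54 in its controls.

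Other effectors above the floor had no call. Ifih1, a sensor of long viral RNA, changed by 0.24, -0.12 and -0.36 at 12, 24 and 72 h, and Ifi35 by -0.08, -0.04 and -0.36. Eif2ak2, the kinase that halts translation on sensing viral RNA, was above all its controls at 24 h, at 6.50, 6.57 and 6.22 against 5.14, 5.99 and 5.93 (0.74 ± 0.26, limma adjusted p = 0.0691), and changed by 0.11 and -0.12 at 12 h and 72 h. Of the ISG15 system, Usp18, which removes ISG15 and damps receptor signalling, changed by -0.51, 0.27 and -0.95 (limma adjusted p = 0.66, 0.696 and 0.198), and Trim25, a ubiquitin ligase that acts with RNA sensors, by 0.26, 0.13 and -0.17.

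The interferon-inducible GTPases were the role in which every gene had a change below 0 at each time, with a median of -0.57 at 12 h, -0.80 at 24 h and -0.94 at 72 h. All 5 were also lower in controls 1 to 3 than in controls 4 to 7, with a median of -0.59 and 0 called by limma (1 lower at an unadjusted p below 0.05). Of the 5, 1 fell at 12 h, 2 at 24 h and 2 at 72 h, where 2.16%, 7.26% and 2.5% of all probe sets were called lower. Gbp3, a guanylate-binding protein, read 7.68, 7.41, 7.83 and 7.55 in controls 4 to 7, 6.93, 6.93, 7.34 and 7.00 at 12 h, and 7.33, 7.36, 7.13 and 7.09 at 72 h. No treated mouse reached the lowest control at either time. Gbp3 fell 1.48-fold at 12 h (-0.57 ± 0.15, n = 4 against 4, limma adjusted p = 0.0348), a call lost without 12 h mouse 1, 2 or 4 or control 4, 6 or 7 (limma adjusted p = 0.0653 to 0.0988), and changed by -0.39 ± 0.15 at 72 h (limma adjusted p = 0.156). Second set controls read 7.66, 7.49 and 7.36, and mice at 24 h 7.12, 6.40 and 6.60, also without overlap. The fall there was 1.74-fold (-0.80 ± 0.17, n = 3 against 3, limma adjusted p = 0.00662) and was called whichever mouse was left out, but not in the 6 arrays alone (limma adjusted p = 0.152).

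Gbp2, of the same family, read 6.57, 6.36, 5.78 and 6.09 in controls 4 to 7, 5.70, 5.47, 5.92 and 5.79 at 12 h, and 5.70, 5.64, 5.33 and 5.23 at 72 h. Mice at 72 h were below all controls, and those at 12 h overlapped them. Gbp2 fell 1.66-fold at 72 h (-0.73 ± 0.20, n = 4 against 4, limma adjusted p = 0.041), a call lost without 72 h mouse 2, 3 or 4 or control 4, 5 or 7 (limma adjusted p = 0.0617 to 0.127), and a second probe set gave -0.45 (limma adjusted p = 0.116). The changes at 12 h and 24 h were -0.48 ± 0.20 and -0.31 ± 0.23 (limma adjusted p = 0.223 and 0.357), with 5.71, 5.56 and 5.36 at 24 h against 6.35, 5.73 and 5.48 in its controls.

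Irgm1, a regulator of the immunity-related GTPases, read 5.82, 5.22, 5.56 and 5.92 in controls 4 to 7, 4.79, 4.05, 5.24 and 4.94 at 12 h, and 5.35, 3.89, 4.49 and 3.91 at 72 h. At both times 1 treated mouse overlapped the lowest control. Irgm1 fell 2.33-fold at 72 h (-1.22 ± 0.32, n = 4 against 4, limma adjusted p = 0.0333), a call lost without 72 h mouse 2, 3 or 4 or control 4, 6 or 7 (limma adjusted p = 0.0599 to 0.111). The changes at 12 h and 24 h were -0.88 ± 0.32 and -0.33 ± 0.37 (limma adjusted p = 0.154 and 0.549), with 4.63, 3.98 and 4.46 at 24 h against 4.86, 4.86 and 4.37 in its controls. Leaving out the 24 h arrays and their controls ended the call at 72 h (limma adjusted p = 0.0662).

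Iigp1, a GTPase that loads onto the vacuoles of parasites, read 6.73, 6.58 and 5.82 in controls 1 to 3 and 5.59, 3.76 and 4.84 at 24 h, without overlap. It fell 3.12-fold (-1.64 ± 0.51, n = 3 against 3, limma adjusted p = 0.0458), a call lost without 24 h mouse 2 or 3 or control 1 or 2 (limma adjusted p = 0.0725 to 0.182), and a dimmer probe set gave -0.22 (limma adjusted p = 0.63). It was also not called in the 6 arrays alone (limma adjusted p = 0.223). In the other set it read 7.09, 6.93, 7.48 and 7.20 in controls 4 to 7, 5.64, 4.71, 7.01 and 6.21 at 12 h, and 5.75, 6.26, 5.64 and 5.42 at 72 h. Mice at 72 h were below all controls, with changes of -1.28 ± 0.44 at 12 h and -1.41 ± 0.44 at 72 h (limma adjusted p = 0.126 and 0.0801). Igtp, a further immunity-related GTPase, changed by -0.43, -0.92 and -0.94 at 12, 24 and 72 h (limma adjusted p = 0.725, 0.138 and 0.159).

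On the brightest probe set of each, none of the 5 class I genes of the group was called by limma at any time. None of these probe sets had an unadjusted p below 0.05. B2m read 11.4, 11.2, 10.8 and 10.7 in controls 4 to 7, 11.1, 10.7, 11.6 and 11.3 at 12 h, and 11.3, 11.0, 10.9 and 10.8 at 72 h. Its readings in the second set were 10.9, 10.4 and 10.6 in controls and 10.5, 10.0 and 10.3 at 24 h. All groups overlapped, with changes of 0.15 ± 0.20, -0.37 ± 0.23 and -0.02 ± 0.20 at 12, 24 and 72 h (limma adjusted p = 0.993, 0.283 and 0.98), and a second probe set gave 0.22, 0.16 and 0.02.

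Psmb8, a catalytic subunit of the immunoproteasome, read 4.87, 5.37, 5.48 and 4.63 in controls 4 to 7, 5.73, 4.42, 5.15 and 4.84 at 12 h, and 5.93, 5.98, 4.55 and 3.83 at 72 h. Mice at 72 h split into values above and below all controls. At 24 h it read 4.56, 3.69 and 4.54 against 4.86, 4.42 and 4.68 in its controls. The changes were -0.05 ± 0.43, -0.39 ± 0.50 and -0.01 ± 0.43 (limma adjusted p = 1.0, 0.616 and 0.991). Tapbp, which holds class I molecules to the peptide transporter, had group means between 9.85 and 10.2 and changes between -0.15 and 0.19 with no call, and both subunits of that transporter, Tap1 and Tap2, were at the floor.

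**Figure D3:**
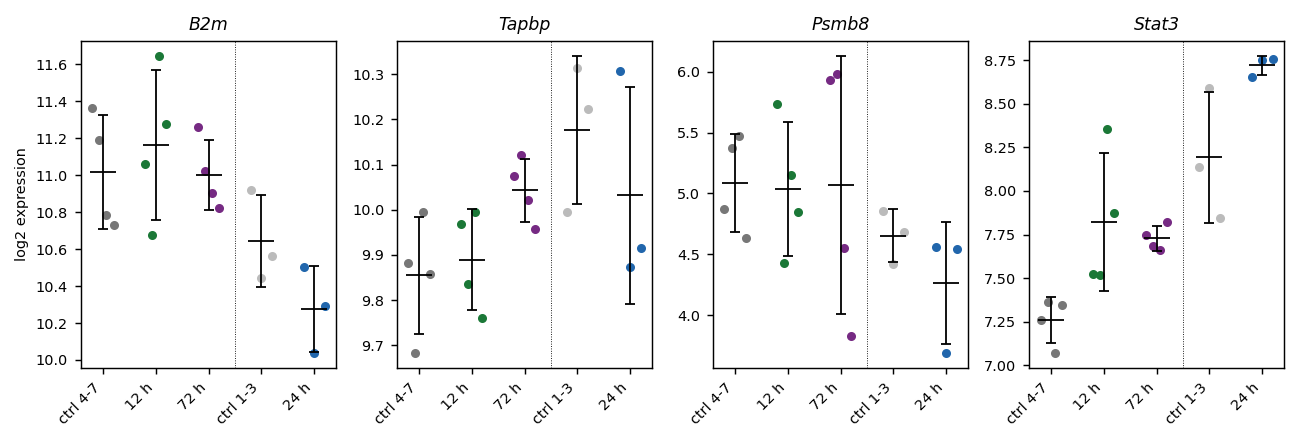
Log2 expression of each array for B2m, Tapbp, Psmb8 and Stat3, with the mean and SD of each group as bars and a dotted line between both array sets. Treated and control values of the 3 class I genes overlap at each time, while Stat3 in treated mice lies above the controls of its set, from 7.52 at 12 h and 7.66 at 72 h against at most 7.36.

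Between 72 h and 12 h of treatment, compared directly within a set, limma called 0 of the 40 genes, against 2.36% of all probe sets. At an unadjusted p below 0.05, 6 of the 40 were lower and 0 higher, where 1207 and 1306 of all 22626 probe sets were. Ifitm1 differed by -1.39 ± 0.35 (limma adjusted p = 0.0528), Oasl2 by -1.19 ± 0.37 (limma adjusted p = 0.129) and Bst2 by -0.48 ± 0.20 (limma adjusted p = 0.334). For these 3 genes every mouse at 72 h was below every mouse at 12 h, and no gene was wholly above, where 4.03% and 4.41% of all probe sets separated in these directions. In 7 other settings Ifitm1, and no other gene of the group, was called lower at 72 h than at 12 h.

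Within a treatment group, certain mice held the highest or the lowest value for many genes. Of the 28 genes above the floor, 12 h mouse 3 had the highest value of its group for 17 (60.7%, against 17.4% of all probe sets above the floor) and mouse 2 the lowest for 18 (64.3% against 20.2%). At 72 h mouse 1 was highest for 18 (64.3% against 30.4%) and mouse 4 lowest for 15 (53.6% against 30.1%). At 24 h mouse 1 was highest for 17 (60.7% against 34.7%) and mouse 3 lowest for 15 (53.6% against 39.5%). Among controls 1 to 3, control 1 was highest for 22 (78.6% against 40.4%), and control 3 lowest for 20 (71.4% against 41.1%). Control 1 was also the array with the lowest 18S reading of the second set, 9.07 against 11.0 to 11.7 on the others, and its part in the values was not tested. Without control 1, 4 genes were called at 24 h.

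Averaged over these 28 genes, log2 expression was 7.17 to 7.26 in controls 4 to 7, 6.64 to 7.27 at 12 h and 6.46 to 6.93 at 72 h. It was 6.72 to 7.11 in controls 1 to 3 and 6.33 to 6.86 at 24 h. Mice at 72 h were all below their controls on this average, and those at 12 h and 24 h overlapped them.

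Macrophages, the main immune cells of the testis, express much of this pathway, and their markers were taken from a list of 16, of which 6, Cd163, Cx3cr1, Itgam, Ptprc, Cd14 and Fcgr1, were at the floor throughout. The summed linear level of the 16 was 926 to 1353 in controls 4 to 7, 783 to 1014 at 12 h and 1321 to 1711 at 72 h, and 719 to 866 in controls 1 to 3 against 701 to 929 at 24 h. Of the 10 above the floor, Csf1r, the receptor for their growth factor, fell by 0.85 at 12 h and by 0.73 at 24 h, Msr1 rose by 0.46 at 24 h, and Cd68 and Mrc1 rose by 1.34 and 0.79 at 72 h. The change was below 0 for 7, 3 and 2 of these 10 at 12, 24 and 72 h. The part of macrophages in the changes of the group was not tested at any time. All measured markers of T and NK cells (11), dendritic cells (5), neutrophils (7) and red blood cells (3) were at the floor in every group, as were 3 of 4 of B cells.

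Markers of the resident testis cells moved as well, where 5.35%, 13.4% and 6.13% of all probe sets were called at 12, 24 and 72 h. Of 7 germ cell markers 1, Zbtb16, was at the floor, and the other 6 all had changes below 0 at 12 h and 24 h and 4 of them at 72 h, with medians of -0.24, -0.45 and -0.37. Dmc1, a meiotic recombinase, fell by 0.58 at 12 h, Stra8, which germ cells need to enter meiosis, by 1.06 at 24 h and 1.03 at 72 h, and Kit, the receptor of differentiating spermatogonia, by 1.39 at 24 h. The summed linear level of the 7 was 7046 to 9114 in controls 4 to 7, 5399 to 8566 at 12 h and 6120 to 8940 at 72 h, and 6740 to 8223 in controls 1 to 3 against 5137 to 7936 at 24 h, so that groups overlapped.

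Of 9 Sertoli cell markers, all above the floor, 2 rose and 2 fell at 12 h, 1 rose and 2 fell at 24 h, and 2 rose and 1 fell at 72 h. Fshr, the FSH receptor, fell by 1.10, 1.24 and 1.11 at 12, 24 and 72 h. The sum of the 9 was 35124 to 45487 in controls 4 to 7, 33629 to 39063 at 12 h and 36029 to 46316 at 72 h, and 35703 to 40051 in controls 1 to 3 against 30656 to 32323 at 24 h, where it did not overlap its controls. A linear sum is weighted to bright markers such as Clu and Aard. Clu read 13.72, 13.87 and 14.15 at 24 h against 14.25, 14.22 and 14.24 in controls 1 to 3. Aard read 13.37, 13.21 and 13.14 against 13.52, 13.01 and 13.40, which overlap. Of 6 Leydig cell markers, 1 at the floor, 2 rose at 12 h and 3 at 24 h, and by limma 0 were called at 72 h, with 1 higher at an unadjusted p below 0.05. Their sum was 2692 to 6566 in controls 4 to 7, 4960 to 7115 at 12 h and 3363 to 4038 at 72 h, and 3846 to 4604 in controls 1 to 3 against 5625 to 8391 at 24 h. The part of germ, Sertoli and Leydig cells in the changes of Ifitm1 and the other genes was not tested.

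**Figure D4:**
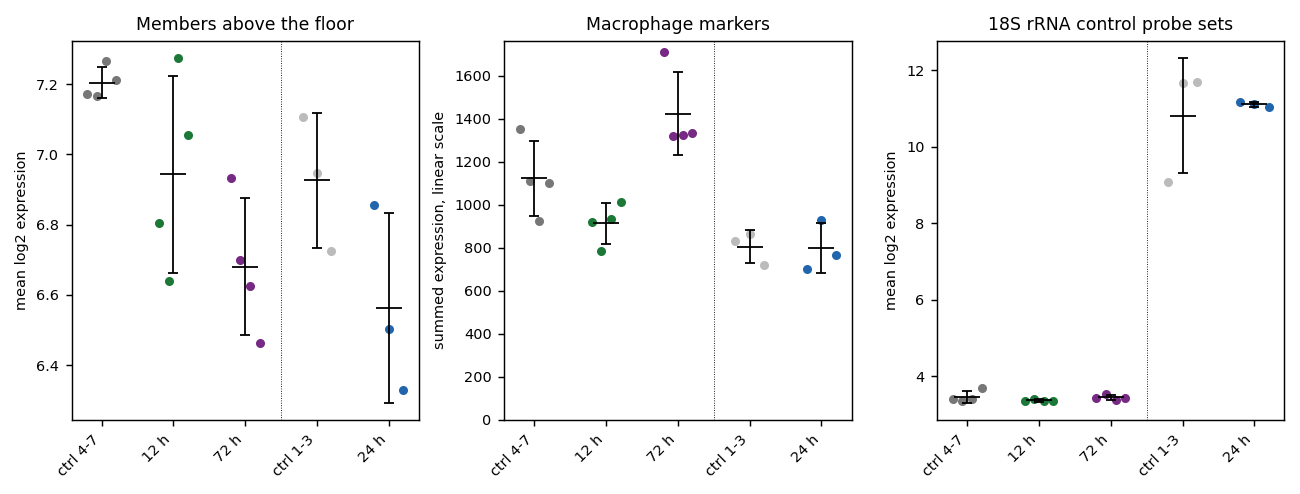
Values of each array with group mean and SD: the mean log2 expression of the 28 genes above the floor, the summed linear level of 16 macrophage markers, and the mean log2 level of 18S ribosomal control probe sets. The 28 genes average 6.46 to 6.93 at 72 h against 7.17 to 7.26 in controls 4 to 7. Macrophage markers sum to 1321 to 1711 at 72 h and 926 to 1353 in controls 4 to 7.

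The rest of the pathway was read from a list of 75 further genes, of which 56 were measured and 34 were above the floor. The median change of the 34 was -0.13, -0.19 and -0.21 at 12, 24 and 72 h. After 12 h of treatment 2 rose and, by limma, 0 fell, with 3 lower at an unadjusted p below 0.05. The counts were 1 and 4 at 24 h, and 1 and 3 at 72 h, so that 2, 5 and 4 of the 56 were called at 12, 24 and 72 h, against 5.35%, 13.4% and 6.13% of all probe sets. Between the untreated control sets 9 of the 56 were called, 6 higher and 3 lower in controls 1 to 3, against 9.31% of all probe sets, and the median of the 34 was -0.24. Of the receptor kinases, Jak2, which serves the interferon gamma receptor, read 7.70, 7.24 and 6.91 in controls 1 to 3 and 5.73, 5.38 and 5.86 at 24 h, without overlap. Jak2 fell 3.08-fold at 24 h (-1.62 ± 0.24, n = 3 against 3, limma adjusted p = 0.000617) and 1.88-fold at 72 h (-0.91 ± 0.21, n = 4 against 4, limma adjusted p = 0.0159). Jak1 fell 1.61-fold at 24 h (limma adjusted p = 0.00348).

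Irgm2, a relative of Irgm1, had the largest fall of that list. It read 6.08, 6.16, 7.17 and 6.28 in controls 4 to 7 and 4.62, 4.34, 4.85 and 3.8 at 72 h, without overlap, and fell 4.06-fold (-2.02 ± 0.44, n = 4 against 4, limma adjusted p = 0.0124). Uba7, which activates ISG15 for transfer, fell 1.53-fold at 72 h (limma adjusted p = 0.0299), and Samhd1, which depletes nucleotides needed by viruses, 1.89-fold at 24 h (limma adjusted p = 0.0119). H2-D1, a class I heavy chain, fell 1.68-fold at 24 h (limma adjusted p = 0.039), though class I heavy chain genes are much alike and which of them the probes read was not tested.

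Calr, the chaperone calreticulin that folds class I molecules among many other proteins, was the gene of the list called higher at each time. It read 11.5, 11.4, 11.3 and 11.7 in controls 4 to 7, 12.2, 12.1, 12.1 and 12.0 at 12 h and 11.7, 11.9, 11.9 and 12.2 at 72 h, and 11.2, 11.1 and 11.3 in controls 1 to 3 against 12.2, 11.8 and 12.2 at 24 h. Treated mice were above their controls at each time. Calr rose 1.54-fold, 1.77-fold and 1.37-fold at 12, 24 and 72 h (limma adjusted p = 0.00468, 0.0013 and 0.0309). Mavs, the mitochondrial adaptor of RNA sensors, rose 1.62-fold at 12 h (limma adjusted p = 0.0213).

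The interferons themselves were at the floor. Of 12 ligand genes 9 were measured, and all 9 were at the floor in every group. At 24 h 7 of the 9 lay wholly above their controls, where 25.8% of all probe sets did. Ifna1 and Ifna9 were called higher at 24 h by 0.23 and 0.25, from 2.42 and 2.66 to 2.65 and 2.91. They are 2 of the 9, where 6.1% of all probe sets were called higher. The lower quartile of all probe sets was also higher at 24 h, at 2.68 to 2.79, than in its controls, at 2.59 to 2.66, and its part in these calls was not tested.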

How the data were processed

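Testis RNA of 18 mice was hybridised to Affymetrix MOE430A arrays, 8 micrograms per array, per the labels' protocols. The deposited values, 1 per probe set and array, were made by the authors and taken as log2 from their range. RMA and GCRMA are named in the submitters' processing notes, and which of them made the values is not given in the sources used here, nor are versions. Probe sets were named through the platform annotation: of 22690, the 64 array controls were left out, and of the 22626 tested 20380 had 1 symbol, 691 several and 1555 none. No value was filtered or imputed. The number of arrays limits the precision.

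A linear model was fitted to all probe sets (limma 3.58.1, R 4.3.3, lmFit and eBayes, two-sided), with a mean for 12 h, 24 h, 72 h, controls 4 to 7 and controls 1 to 3 and 13 residual degrees of freedom. Benjamini-Hochberg adjustment ran over all 22626. Errors are SE of a log2 change, and folds are 2 to the power of it. The script was tested on simulated data.

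The members, the lists of further genes and markers and the tests were chosen with earlier results of these data known. Given in full were the members called at any time, at most 14, and B2m, Psmb8, Stat2, Stat3, Ifnar1 and Ifngr1. From the list of further genes up to 4 called per direction and comparison were named. Other members are summarised. Levels of different probe sets were not compared as amounts of RNA, though sums and means over genes are given where stated.

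Whether replicate numbers pair mice was checked from the deviations of same-numbered arrays from their group means. Correlations were 0.15, 0.36 and 0.45 between 24 h and controls 1 to 3, and -0.00 to 0.14 between 12 h and 72 h. Differently numbered arrays were not compared in this way, so these values do not show whether the numbers pair mice. The main fit held no term for pairs, so the changes, SE and calls given for it at 24 h are unpaired. In 1 other setting the numbers were taken as a block in the second set alone, a pairing that comes from the data and not from the labels. No pair of arrays was a duplicate, the highest correlation between 2 arrays being 0.997.

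Other settings were all 7 controls without the array set, the arrays of a set alone, the set as a random block, quantile normalisation, centring on the median, a filter on dim probe sets, the mean of a gene's probe sets, an intensity trend, a replicate block and leaving out each array. The replicate block in the second set alone was chosen after seeing the data.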

Additional observations from a re-analysis of the deposited data

Results flagged for a closer look

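Irf8 stood out because its change at 24 h differed from that at 12 h, each against the controls of its own array set, by -1.60 (limma adjusted p = 0.0211), with 3 of 3 mice at 24 h below every control. Of 84 groups of 4 arrays examined over the 28 genes above the floor, 4 held an array far from the others, and chance gives about 1 in 20. Irf1 read 6.53 in 12 h mouse 1 against 7.06 to 7.16 in the other mice of the group, and Ifngr2 read 5.14 in the same mouse against 6.86 to 7.01. Eif2ak2 read 5.50 in control 4 against 5.79 to 5.83, and Ifitm2 read 9.65 in control 5 against 8.82 to 8.87.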

How the results depend on the processing

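Among the calls of single genes, Irf8 at 24 h was called in all 16 other settings tried, Ifitm1 at 72 h in 16 of 17, the replicate block excepted, and Ifitm1, Ifnar1 and Gbp3 at 24 h in 15 of 16, the arrays of the set alone excepted. Other calls against controls were kept less often. At 72 h Irgm1 was kept in 6, Gbp2 in 8, Oasl2 in 9, Bst2 in 10 and Ifit3 and Irf1 each in 11 of 17. At 12 h Gbp3 was kept in 10 and Ifit3 in 11 of 17, and at 24 h Iigp1 in 8 of 16. Quantile normalisation ended the calls of Irgm1 and Iigp1, and centring that of Gbp2. For the 12 genes at the floor no change can be read. With all 7 controls and no term for the array set, 12 genes were called at 24 h (9 lower and 3 higher), 2 at 72 h and 9 in the difference between 24 h and 12 h, where Stat3 turned from -0.03 to 0.90 (limma adjusted p = 0.0278), and the calls over all probe sets rose from 3023 to 8137 at 24 h and from 198 to 9098 in that difference. In the arrays of a set alone 1 gene was called at 24 h, where 393 probe sets were, and 0 between control sets (772 against 2107), which is a fit with fewer samples. With the set as a random block 8 were called at 24 h, 6 lower and 2 higher (4707 probe sets, and 971 in the difference between times). Ifitm1 made a count of 1 between 72 h and 12 h under 6 of the settings that keep all mice of those times. Centring gave 7 genes between control sets and 6547 probe sets, and moved the share of higher calls from 59.7% to 73.4% at 12 h, from 59.2% to 71.6% at 72 h, from 35.9% to 24.6% in the difference between 24 h and 12 h and from 49.8% to 82.1% between control sets, where quantile normalisation gave 62.4%. Testing bright probe sets alone gave 4 at 12 h (3 lower and Stat3 higher) and 5 between control sets, and the mean of probe sets 5 at 12 h (4 lower and Stat3 higher), where fewer features are tested (1929 calls at 24 h, 130 in the difference, 1293 between control sets). With the replicate block, where the numbers tie 12 h and 72 h to controls 4 to 7 by number 4 alone, 0 were called at 12 h, 72 h, in the difference and between control sets, 4 at 24 h, and 255, 244, 52, 98 and 2098 probe sets, with 324 between 72 h and 12 h; with numbers as a block in the second set alone 4827 were called at 24 h and 650 in the difference. For other changes the cause was not tested. Leaving out 1 array gave 0 to 4 genes at 12 h, 4 to 7 at 24 h, 1 to 7 at 72 h, 0 to 1 between 72 h and 12 h, 0 to 1 in the difference and 1 to 4 between control sets. With control 4 or 5 left out, the counts at 12 h and 72 h include Irf7, at the floor. Without control 5 they also include Ifit1, at the floor.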
